A study of Homo sapiens with 12 samples.

Results

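The response of TMD8 cells to ST5589 was read from 6 of the 12 arrays of the series: those titled as TMD8 with ST5589 at 300 nM (3 arrays) and as TMD8 with DMSO, the solvent alone (3 arrays). TMD8 is an established line of diffuse large B-cell lymphoma of the activated B-cell type, and the labels call ST5589 a derivative of ST1926, an atypical retinoid also known as adarotene. The other 6 arrays hold DOHH2, an established lymphoma line of the germinal centre B-cell type, with ST5589 at 300 nM (3 arrays) or DMSO (3 arrays). The series set out to describe expression with and without the compound, and its title singles out the kinase gene AURKA. The sources used here give neither the exposure time nor whether the 3 arrays of a group came from separate cultures. The p-values therefore describe only how far these arrays spread, which may be technical. All 6 TMD8 arrays lay on 1 chip, with the DMSO arrays in the leading positions and the ST5589 arrays after them, so that treatment cannot be told apart from position on the chip.

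Levels are given as log2 intensities of single-colour Illumina beadchip probes after background correction and quantile normalization over all 12 arrays. A difference of 1 on this scale is a doubling of the corrected intensity, and levels of different genes are not compared, since each has its own probe. A gene was tested where a probe exceeded background in every array of 1 or more groups, and it was called where the adjusted p (limma, Benjamini-Hochberg over all genes) was under 0.05. This left 11419 genes, of which 10789 met that rule within a TMD8 group.

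The markers of the line were largely those of its label. Of the pan-B-cell markers on the array, 6 of 7 were above background in all 6 TMD8 arrays, and PAX5 was in none. Of the markers of the activated B-cell type 14 of 15 were above background in all 6, with LIMD1 in none, against 9 of 14 for the germinal centre type. Of the T and NK cell markers 1 of 11 was above background in all 6 arrays and 7 were in none, CD3E, CD3G and CD4 among them. The summed intensity of the T and NK list ranged from 719 to 767 with ST5589 and from 731 to 766 with DMSO, and these ranges overlapped. Those of the germinal centre list (3685 to 3984 with ST5589, 4155 to 4510 with DMSO) and of the stromal and epithelial list (1308 to 1392 with ST5589, 1282 to 1307 with DMSO) did not overlap, and their part in the results was not tested. Of the 11 stromal and epithelial markers 2 were above background in all 6 arrays and 6 were in none, PECAM1 and VWF among them.

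A pair of arrays stood apart within their groups. In ST5589 array 2 a set of short non-coding RNAs was far brighter than in ST5589 arrays 1 and 3, and the median log2 intensity of 4 ribosomal RNA probes was 11.35, 12.85 and 11.69 in ST5589 arrays 1 to 3, against 10.73, 10.91 and 10.85 in DMSO arrays 1 to 3. DMSO array 1 had the largest root mean square deviation from its group mean among the TMD8 arrays (0.192, against 0.0806 to 0.118 in the other 5). Several of the results that rest on either array are given below with and without it.

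A dividing cell copies its DNA in S phase and then raises the kinases, cyclins and spindle proteins of mitosis. Many of their genes share a pair of promoter elements. The p53 protein answers DNA damage and other stresses by switching on inhibitors of the cycle and of survival, with CDKN1A (p21) as its best known target. The integrated stress response slows translation and switches on the transcription factors ATF4, ATF3 and DDIT3 (CHOP). In bulk RNA, fewer cells in a given phase and less RNA per cell cannot be told apart.

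Few genes passed the test in TMD8. Of the 11419 genes 106 were called (0.928%), 64 of them higher under ST5589 (0.56%) and 42 lower (0.368%). Genes of chromosome segregation and cell division made up most of the falls, and the rises split between short non-coding RNAs (20 genes) and 44 other genes, among them stress-response, p53-target, DNA replication and repair genes. The called changes outside the short RNAs were modest, from 0.36 to 1.84 among the rises and from -1.23 to -0.44 among the falls. All 106 called genes had ST5589 arrays either all above or all below the DMSO arrays, which held for 17.8% of all genes tested. At an unadjusted p under 0.05 there were 833 genes (7.29%), and a further 46 genes had an adjusted p between 0.05 and 0.10, 29 of them higher. The count of 106 dropped whichever TMD8 array was left out, to 60, 62 and 61 without ST5589 arrays 1, 2 and 3 and to 66, 50 and 57 without DMSO arrays 1, 2 and 3, and it was 50 without both ST5589 array 2 and DMSO array 1. It was 9 when arrays were scaled to a common median instead of quantile normalized.

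**Figure D1:**
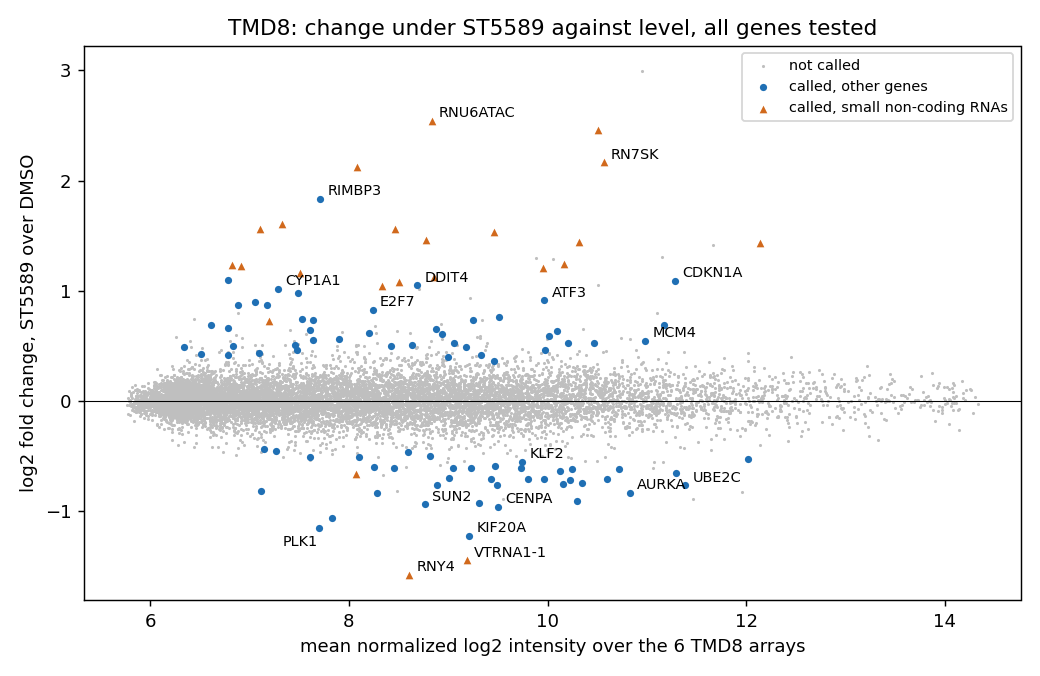
Change under ST5589 (log2 fold change over DMSO, vertical axis) against the mean normalized log2 intensity over the 6 TMD8 arrays (horizontal axis) for the 11419 genes tested. Grey points are genes not called, blue points called genes and orange triangles called short non-coding RNAs; the triangles hold the largest called rise (RNU6ATAC, 2.54) and the largest called fall (RNY4, -1.58).

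AURKA, the mitotic kinase Aurora A that the series title names, had log2 intensities of 10.46, 10.41 and 10.36 in ST5589 arrays 1 to 3, against 11.21, 11.26 and 11.26 in DMSO arrays 1 to 3. The groups were well apart and each was tight. AURKA fell by 0.84 on the log2 scale (log2 fold change -0.84 ± 0.09, SE; limma adjusted p = 0.000382), and a further AURKA probe gave -0.93. Under median scaling its value was -1.05 and did not pass (adjusted p = 0.318).

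Outside the short RNAs, most of the largest falls were in genes of the mitotic machinery. KIF20A, a kinesin needed for cytokinesis, had 8.60, 8.58 and 8.61 in the ST5589 arrays, against 9.72, 9.87 and 9.88 in the DMSO arrays, a log2 fold change of -1.23 ± 0.10 (SE; limma adjusted p = 0.000198). PLK1, the polo-like kinase that drives entry into and passage through mitosis, had 7.08, 7.20 and 7.08 with ST5589, against 8.19, 8.28 and 8.35 with DMSO (-1.15 ± 0.11, adjusted p = 0.000283). In both genes the gap between the groups was several times the spread within either. PIF1, a DNA helicase, had 7.08, 7.56 and 7.27 with ST5589, against 8.51, 8.32 and 8.27 with DMSO (-1.06 ± 0.15, adjusted p = 0.004). CENPA, the histone H3 variant of centromeres, had 9.10, 8.90 and 9.06, against 9.92, 10.03 and 9.98 with DMSO (-0.96 ± 0.11, adjusted p = 0.000521). SUN2, a protein of the inner nuclear membrane that ties the nucleus to the cytoskeleton, is not a mitotic gene by name but fell as far. Its values were 8.26, 8.36 and 8.28 with ST5589, against 8.98, 9.47 and 9.27 with DMSO (-0.94 ± 0.14, adjusted p = 0.00485).

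The B-type cyclins, partners of CDK1 in mitosis, fell together. CCNB1 had 8.83, 8.86 and 8.86 with ST5589, against 10.09, 9.66 and 9.57 with DMSO, where array 1 was the highest (-0.92 ± 0.14, adjusted p = 0.00485). CCNB2 had 9.90, 9.88 and 9.74 with ST5589, against 10.81, 10.65 and 10.79 with DMSO (-0.91 ± 0.13, adjusted p = 0.00402). DEPDC1, a gene active in dividing cells, had 7.87, 7.95 and 7.76, against 8.95, 8.59 and 8.55 with DMSO (-0.84 ± 0.12). All 3 genes were lower in every ST5589 array than in any DMSO array. UBE2C, the ubiquitin-conjugating enzyme of the anaphase-promoting complex, had 11.04, 10.96 and 11.02, against 11.82, 11.73 and 11.77 with DMSO (-0.77 ± 0.08, adjusted p = 0.000382). SAPCD2, a regulator of spindle orientation, had 6.70, 6.64 and 6.77, against 7.58, 7.56 and 7.44 with DMSO (-0.82 ± 0.13). CENPE, a kinetochore motor, averaged 9.11 ± 0.13 with ST5589 and 9.87 ± 0.16 with DMSO (SD, n = 3 each), a log2 fold change of -0.77 ± 0.12 (SE). Of the 12 largest falls outside the short RNAs 11 stayed called without each of the 6 TMD8 arrays in turn, and CENPE did not pass without ST5589 array 3 (adjusted p = 0.0504).

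**Figure D2:**
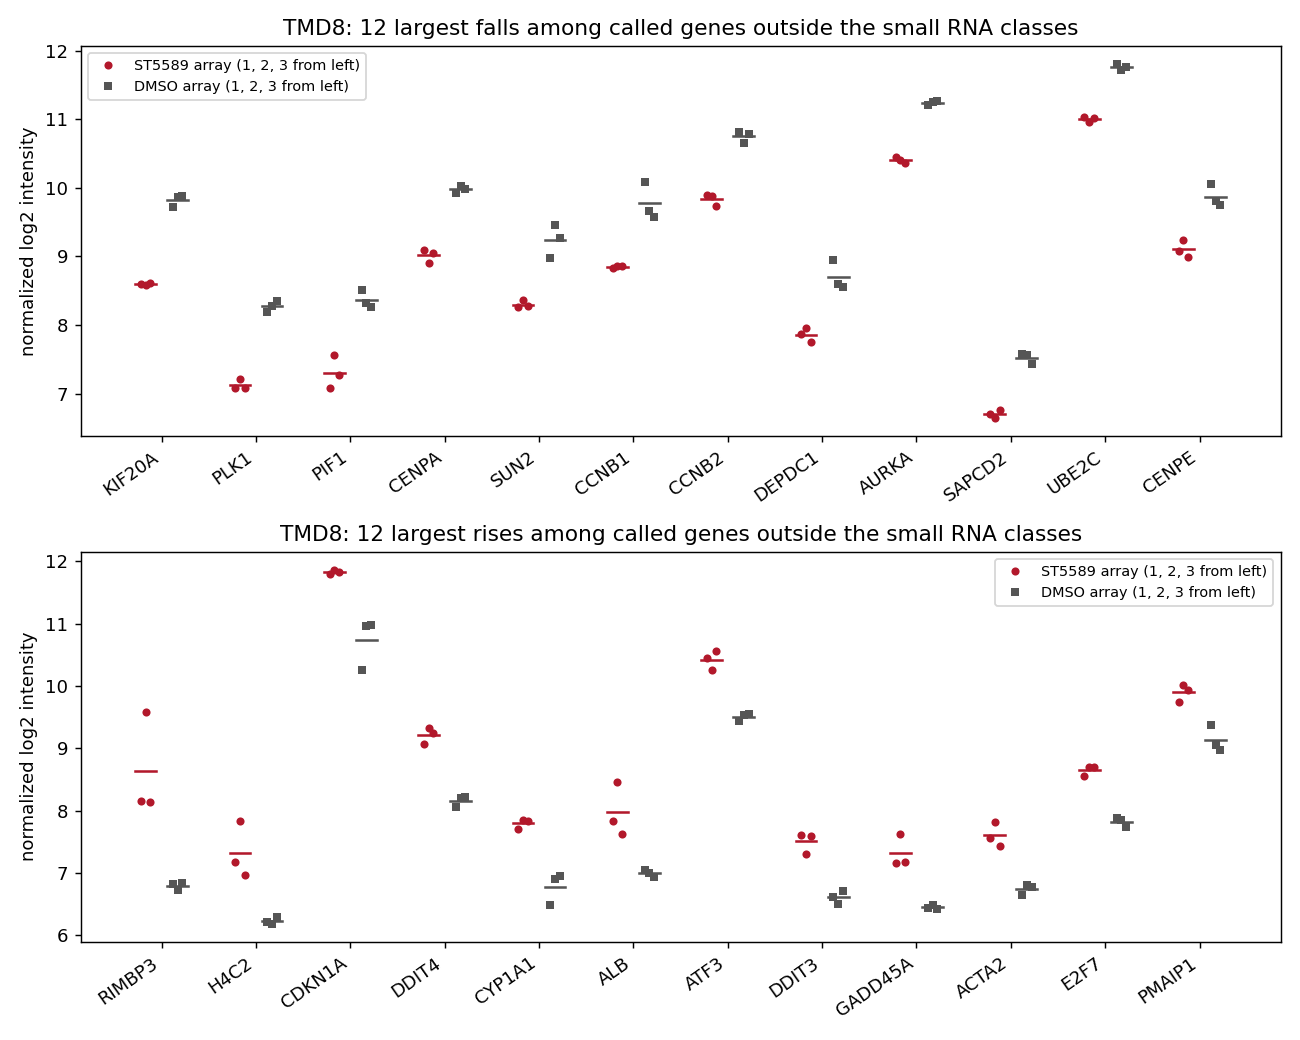
Normalized log2 intensity in each TMD8 array for the 12 largest falls (upper panel) and the 12 largest rises (lower panel) among called genes outside the short RNA classes. Red circles are ST5589 arrays, grey squares DMSO arrays and bars the group means; no gene has overlapping groups, and ST5589 array 2 is the high point in RIMBP3, H4C2 and ALB.

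The list of mitosis and spindle genes had 62 tested members, of which 25 were called lower and 0 higher, beside 0.368% of all genes called lower. The list, like the others, was chosen with earlier results of these data known, so these counts are a description. Its median log2 fold change was -0.50, beside 0.01 for all genes, and 60 of 62 members were negative. Only 13 of the 25 stayed called without each TMD8 array in turn; 18 were called without ST5589 array 2, 21 without DMSO array 1, and 1 under median scaling, where the median was -0.69. The 15 members of the list not described above ranged from -0.76 to -0.47. They include CDCA3, which promotes entry into mitosis (-0.76 ± 0.11), DLGAP5, a stabiliser of spindle fibres (-0.75 ± 0.13), the checkpoint kinase BUB1 (-0.71 ± 0.13), ECT2, which starts cytokinesis (-0.70 ± 0.12), the DNA topoisomerase TOP2A (-0.66 ± 0.12), and BIRC5 (survivin), of the chromosomal passenger complex (-0.59 ± 0.11). A further 14 called falls outside the short RNAs were not on that list. Several work in the same processes. They were KPNA2, an importin of nuclear import (-0.72 ± 0.10), CDKN3, a phosphatase acting on CDKs (-0.75 ± 0.12), SUN2, SAPCD2, CCNF, the cyclin of an SCF ubiquitin ligase (-0.64 ± 0.11), KNSTRN, a kinetochore protein (-0.61 ± 0.12), GPSM2, a spindle-orientation protein (-0.51 ± 0.09), HYLS1, a centriole protein (-0.45 ± 0.09), FAM72A (-0.51 ± 0.08) and PTTG3P, a copy of the securin gene (-0.71 ± 0.15). The last 2 have near-identical relatives in the genome, so their probes may read more than 1 gene. The other 4 were the pseudogene ARHGAP27P1 (-0.70 ± 0.11), the histone gene H2AC6 (-0.60 ± 0.12), the transcription factor KLF2 and the actin-binding protein gene ENC1 (-0.44 ± 0.09).

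KLF2, a transcription factor that holds lymphocytes in quiescence, was the single called fall on the lists of immediate-early genes and of quiescence genes. It had 9.40, 9.63 and 9.39 with ST5589, against 10.13, 9.97 and 9.97 with DMSO (-0.55 ± 0.10, adjusted p = 0.0173). The ST5589 values all lay below the DMSO values, with the smallest gap at ST5589 array 2. The call held without that array (-0.63, adjusted p = 0.0186) and was lost without each of the other 5 in turn (adjusted p from 0.0569 to 0.113). The remaining called immediate-early gene moved the other way: IER3, a stress-induced survival gene, had 9.62, 9.71 and 9.54, against 8.58, 9.03 and 9.03 with DMSO (0.74 ± 0.15, adjusted p = 0.0317). IER3 was lost without each array in turn (adjusted p from 0.0621 to 0.159). The other 28 of the 30 tested immediate-early genes were not called, and the list's median was 0.01. Of all genes 0.928% were called.

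Promoters of the falling genes are shown because they fell as a group and the elements known to time mitotic genes lie just before the start of transcription. RefSeq promoters (GRCh38.p14) were matched by symbol for 31 of the 39 falls and 36 of the 44 rises outside the short RNAs. The 150 bases before the start are printed below, 5′ to 3′ on the gene's strand, for the 6 largest falls with an entry. Capitals mark the CCAAT box (CCAAT, or ATTGG where it lies on the other strand) and the cell-cycle homology region (CHR; TTTGAA or TTCGAA, or TTCAAA on the other strand).
KIF20A (chr5:138178962-138179111, plus strand): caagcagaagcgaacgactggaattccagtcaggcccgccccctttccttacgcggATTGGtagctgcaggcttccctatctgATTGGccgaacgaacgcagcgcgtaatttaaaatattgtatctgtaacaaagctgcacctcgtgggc
PLK1 (chr16:23678739-23678888, plus strand): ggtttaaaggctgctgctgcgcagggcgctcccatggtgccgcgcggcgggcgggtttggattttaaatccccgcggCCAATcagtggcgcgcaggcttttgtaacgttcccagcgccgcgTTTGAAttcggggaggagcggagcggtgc
PIF1 (chr15:64825648-64825797, minus strand): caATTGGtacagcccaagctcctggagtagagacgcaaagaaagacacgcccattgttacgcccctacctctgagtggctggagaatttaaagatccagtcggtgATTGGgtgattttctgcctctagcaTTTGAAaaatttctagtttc
CENPA (chr2:26785906-26786055, plus strand): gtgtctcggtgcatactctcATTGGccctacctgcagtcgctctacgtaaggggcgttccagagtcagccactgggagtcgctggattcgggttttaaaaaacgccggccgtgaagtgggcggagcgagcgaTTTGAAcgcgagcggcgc
SUN2 (chr22:38755999-38756148, minus strand): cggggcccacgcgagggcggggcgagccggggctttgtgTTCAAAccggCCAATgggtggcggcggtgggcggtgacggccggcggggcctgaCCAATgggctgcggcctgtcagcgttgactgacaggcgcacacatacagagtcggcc
CCNB1 (chr5:69167000-69167149, plus strand): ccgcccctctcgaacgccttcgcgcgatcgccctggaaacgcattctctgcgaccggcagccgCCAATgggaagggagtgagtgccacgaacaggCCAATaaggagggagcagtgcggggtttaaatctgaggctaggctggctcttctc

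PLK1, PIF1, CENPA and SUN2 each held 1 CHR within these 150 bases, and KIF20A and CCNB1 held none. All 6 held at least 1 CCAAT box. Over the 250 bases before the start and on both strands, a CHR lay in 20 of the 31 falls (64.5%) and in 2 of the 36 rises (5.56%), beside 959 of the 9127 tested genes with an entry (10.5%). A CCAAT box lay in 28 of the 31 falls (90.3%) and 18 of the 36 rises (50%), beside 35.8% of all. Both elements were present in 20 of the 31 falls, beside 4.31% of all promoters. Of the 11 falls with a promoter outside the mitosis list, 7 held a CHR. The E2F site (TTTCCCGC, TTTGGCGC, TTTCGCGC or TTTGCCGC) lay in 1 fall and in 5 rises (13.9%), beside 4.66% of all, and the CRE site (TGACGTCA) in 2 falls and 5 rises (13.9%), beside 3.08%. The stress element CARE (TGATGNAA) lay in 0 falls and 1 rise (2.78%), beside 1.53%, and the core of the aryl hydrocarbon receptor site (GCGTG) in 13 falls (41.9%) and 14 rises (38.9%), beside 4104 of the 9127. The motifs were chosen after the changes were known, do not contain each other, and a match is a description of letters, not a site.

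Genes of the integrated stress response were among the rises, led by DDIT4, a stress-induced inhibitor of mTORC1. DDIT4 had 9.06, 9.32 and 9.24 with ST5589, against 8.06, 8.21 and 8.21 with DMSO (1.05 ± 0.11, SE; limma adjusted p = 0.000382). ATF3, a stress-induced transcription factor, had 10.46, 10.26 and 10.56, against 9.45, 9.53 and 9.55 with DMSO (0.91 ± 0.11, adjusted p = 0.000859). For both genes the 2 groups lay clearly apart, and both stayed called without each TMD8 array in turn. DDIT3, the factor CHOP, had 7.61, 7.30 and 7.60, against 6.62, 6.50 and 6.71 with DMSO (0.89 ± 0.16, adjusted p = 0.0128). PPP1R15A (GADD34), which restores translation by removing the phosphate from eIF2 alpha, had 11.63, 11.37 and 11.56, against 10.64, 11.03 and 10.82 with DMSO (0.69 ± 0.14, adjusted p = 0.0391). INHBE, an inhibin subunit gene induced in this response, had 6.74, 6.38 and 6.65, against 6.17, 6.08 and 6.04 with DMSO, where it was not well above background in any array. For INHBE the rise was at least 1.34-fold (limma adjusted p = 0.0498), a bound that sets each DMSO array at its dimmest signal above background or at the INHBE probe itself, whichever was brighter.

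Of the 36 tested members of the integrated stress list 5 were called higher and 0 lower, beside 0.56% of all genes called higher. The median was 0.26 and 33 of 36 were positive, beside 52.7% of all genes. DDIT3 was lost without DMSO array 2 and without ST5589 arrays 1 and 3 (adjusted p from 0.0745 to 0.0789), PPP1R15A without each array in turn (0.05 to 0.193) and INHBE without each but ST5589 array 2 (0.0895 to 0.279). Lists that neighbour this response held no called gene. The 18 tested aminoacyl-tRNA synthetase genes had a median of 0.10, with FARSB at 0.25 and SARS1 at 0.22. The 25 endoplasmic reticulum chaperone and folding genes had a median of -0.01, with EDEM1 at 0.38 and HSPA5 (BiP) at -0.29. The 20 heat shock genes had a median of -0.10, with HSPA1B at -0.43 and HSPA4 at -0.40. The 21 oxidative stress genes had a median of 0.04, with KEAP1 at 0.24 and MAFG at 0.22. None of these 8 genes passed the test (limma adjusted p from 0.199 to 0.904). DDIT4 was also the single called gene among the 13 tested stress-linked inhibitors of mTOR, beside 0.928% of all genes called. The median of that list was 0.05.

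Among p53 target genes CDKN1A, the CDK inhibitor p21, had 11.79, 11.87 and 11.82 with ST5589, against 10.26, 10.97 and 10.98 with DMSO (1.09 ± 0.19, limma adjusted p = 0.012). DMSO array 1 lay well below its 2 companions, and without it the value was 0.85 and still passed (adjusted p = 0.0282). Without ST5589 arrays 1, 2 or 3 CDKN1A did not pass (adjusted p = 0.051, 0.0599 and 0.0571). GADD45A, a growth arrest and DNA damage gene, had 7.16, 7.62 and 7.17, against 6.43, 6.49 and 6.42 with DMSO (0.87 ± 0.13, adjusted p = 0.00485), and a further probe gave 1.01. PMAIP1 (NOXA), a BH3-only protein that promotes apoptosis, had 9.75, 10.01 and 9.93, against 9.37, 9.05 and 8.98 with DMSO (0.77 ± 0.11, adjusted p = 0.00411). A further PMAIP1 probe gave only 0.22. Both GADD45A and PMAIP1 stayed called without each array in turn, as did PHLDA3, a repressor of AKT (0.69 ± 0.10), and PPM1D, the phosphatase WIP1 (0.65 ± 0.10). The 36 tested p53 targets held 9 called rises and 0 falls, beside 0.56% of all genes called higher, with a median of 0.20. The other 4 were BAX, AEN, TNFRSF10B and DDB2, at 0.64, 0.53, 0.50 and 0.46. AEN and DDB2 did not pass without any of the 6 arrays in turn (adjusted p from 0.0543 to 0.239), nor BAX and TNFRSF10B without 5 of the 6 (BAX held without DMSO array 3 and TNFRSF10B without DMSO array 2). MDM2, the ubiquitin ligase that restrains p53, averaged 6.70 ± 0.05 with ST5589 and 6.32 ± 0.06 with DMSO (SD, n = 3 each), and its log2 fold change of 0.37 ± 0.14 did not pass (adjusted p = 0.509).

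In the BCL2 family 2 of 18 tested members were called, beside 0.928% of all genes. They were PMAIP1 and BAX, both promoters of apoptosis, and the list's median was 0.06. In the death receptor and caspase list 1 of 23 was called, beside the same 0.928%. It was TNFRSF10B, the TRAIL receptor DR5, and the median was 0.03. DR5 had 8.62, 8.69 and 8.71 with ST5589, against 8.12, 8.32 and 8.08 with DMSO. Its 2 further probes, both dim, gave 0.05 and 0.10, and a further dim BAX probe gave 0.15. A further PMAIP1 probe, with a mean level of 8.22, gave 0.22. The values of these genes thus rest on the brightest probe of each.

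Several genes of S phase rose as well. Among the called ones E2F7, an atypical E2F that represses S-phase genes, had the largest rise, with 8.55, 8.71 and 8.70 with ST5589, against 7.88, 7.85 and 7.74 with DMSO (0.83 ± 0.12, limma adjusted p = 0.004). It stayed called without each array in turn. CCNE1, cyclin E1 of the G1/S step, had 9.22, 9.28 and 9.23, against 8.41, 8.79 and 8.71 with DMSO (0.61 ± 0.12, adjusted p = 0.0264). These were the 2 called genes among 26 tested of the G1/S and E2F list, beside 0.928% of all genes called. The list's median was 0.13. On the DNA replication list 5 of 58 were called higher and 0 lower, beside 0.56% of all genes called higher, with a median of 0.28 and 51 positive, beside 52.7% of all genes. The called genes were POLD3, a subunit of DNA polymerase delta (0.61 ± 0.10), GINS2 and MCM4 of the replicative helicase (0.59 ± 0.12 and 0.55 ± 0.11), CHAF1B, a chromatin assembly factor (0.51 ± 0.10), and RFC1, of the clamp loader (0.42 ± 0.09). On the DNA repair list 2 of 40 were called higher, beside 0.56% of all genes. They were UNG, the uracil-DNA glycosylase (0.53 ± 0.10), and EXO1, an exonuclease (0.46 ± 0.09), and the list's median was 0.19. CCNE1 and these 7 genes each lost the call without at least 2 of the 6 arrays. Without DMSO array 1 the replication list kept 1 called gene, without ST5589 array 2 it kept 0, and without both arrays 0, while the list's median was 0.24, 0.27 and 0.26 in these settings.

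CYP1A1, the cytochrome P450 best known as a target of the aryl hydrocarbon receptor, rose in TMD8. It had 7.71, 7.85 and 7.83 with ST5589, against 6.49, 6.90 and 6.96 with DMSO (1.02 ± 0.12, limma adjusted p = 0.000914). It was the single called gene of 10 tested on the list for that receptor, beside 0.928% of all genes called. The list's median was 0.16. AHRR, the receptor's repressor, averaged 7.44 ± 0.13 with ST5589 and 7.03 ± 0.07 with DMSO (SD, n = 3 each) and lay just outside the threshold (0.41 ± 0.09, adjusted p = 0.0514). CYP1A1 stayed called under every one of the 29 alternatives run. In DOHH2 its probe was above background in 0 of 6 arrays.

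CYP26A1, the retinoic acid hydroxylase that retinoic acid receptors induce, was above background in 3 ST5589 arrays and 1 DMSO array. It had 6.26, 6.38 and 6.26 with ST5589, against 6.06, 6.09 and 6.26 with DMSO, and the groups overlapped (0.16 ± 0.09, adjusted p = 0.781). Of the 19 tested genes of the retinoid response list 0 were called, and the largest values were 0.35 for ASB2 and 0.32 for BHLHE40. The list's median was 0.07.

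Of the other 35 rises outside the short RNAs and the p53 list, 18 were on none of the lists. RIMBP3 had 8.16, 9.59 and 8.14 with ST5589, against 6.82, 6.73 and 6.83 with DMSO (1.84 ± 0.28, adjusted p = 0.00518). H4C2, a histone H4 gene, had 7.18, 7.83 and 6.96, against 6.21, 6.18 and 6.30 with DMSO (1.09 ± 0.16). Its DMSO values lay near the lowest signal above background, which was 6.22, 6.15 and 6.15 in DMSO arrays 1 to 3. ALB, the serum albumin gene, averaged 7.97 ± 0.43 with ST5589 and 6.99 ± 0.05 with DMSO (SD, n = 3 each), with 8.46 in ST5589 array 2 (log2 fold change 0.98 ± 0.16, SE). In all 3 the ST5589 array 2 exceeded both of its companions by more than 0.5, as it did for the short RNAs. Without that array they still passed, at 1.36, 0.84 and 0.73 (adjusted p = 4.5e-05, 0.00165 and 0.00586). RIMBP3 and H4C2 belong to families of near-identical genes, so their probes may read more than 1 copy.

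ACTA2, smooth muscle actin, had 7.56, 7.82 and 7.44 with ST5589, against 6.65, 6.81 and 6.77 with DMSO (0.87 ± 0.15, adjusted p = 0.0135), and was lost without each array but ST5589 array 3 (adjusted p from 0.05 to 0.0841). CX3CL1, a membrane-bound chemokine, was at 0.73 ± 0.12, and DRAM1, a lysosomal protein induced by p53, at 0.65 ± 0.11. INKA2, an inhibitor of the kinase PAK4, was at 0.66 ± 0.11. The B-cell surface receptor FCRL2 was at 0.52 ± 0.11, the recombination factor PSMC3IP at 0.55 ± 0.11, the acetyltransferase KAT2B at 0.40 ± 0.08 and the centriole protein CCP110 at 0.36 ± 0.08. The others were IRF2BPL, LHFPL2, ESPNL, PAQR4, ASTN2, BLOC1S2 and the zinc transporter SLC30A3, between 0.41 and 0.56. Of the 18 genes 3 stayed called without each array in turn (RIMBP3, H4C2 and ALB), and CX3CL1 was lost only without ST5589 array 1 (adjusted p = 0.051). CD1D, which presents lipids to NKT cells, was the single called gene of 18 on the MHC class I list, beside 0.928% of all genes. It had 7.86, 8.00 and 7.84 with ST5589, against 7.38, 7.04 and 7.06 with DMSO (0.74 ± 0.13, adjusted p = 0.0111), while that list's median was -0.05. The CD1D call was lost without DMSO arrays 2 and 3 and ST5589 array 2 (adjusted p from 0.066 to 0.0716).

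**Figure D3:**
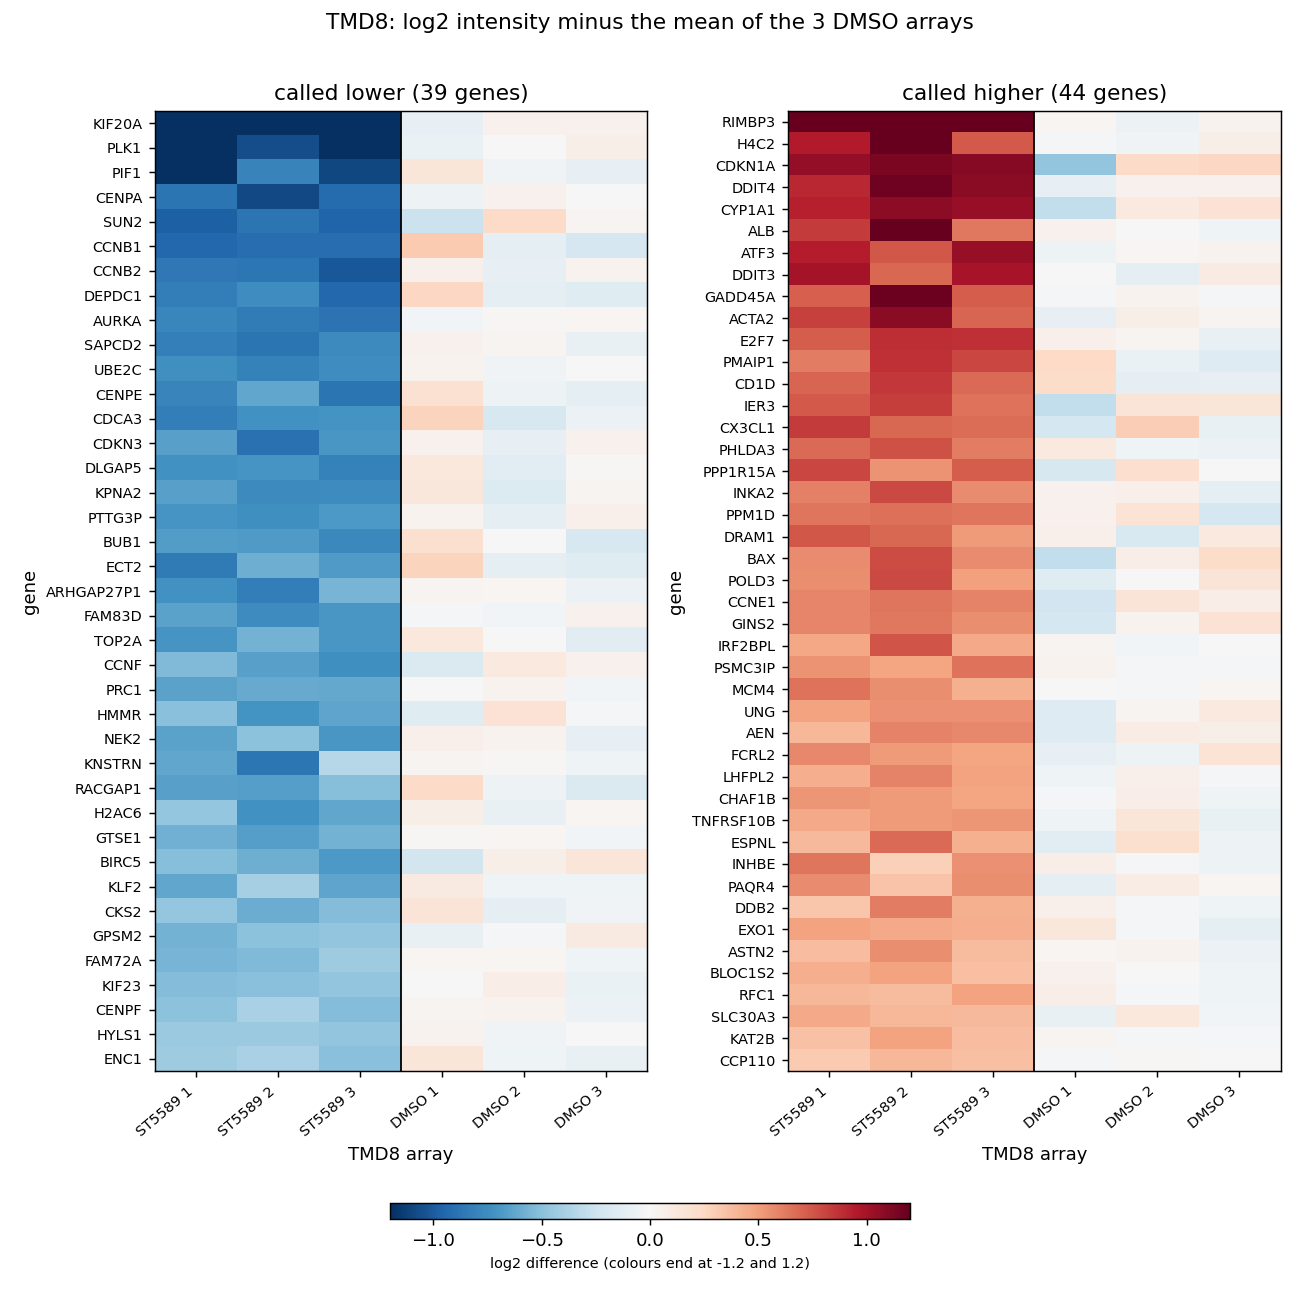
Log2 intensity minus the mean of the 3 DMSO arrays for the 39 called falls and 44 called rises outside the short RNAs, with 1 row per gene and 1 column per TMD8 array (ST5589 arrays left of the line, DMSO arrays right of it). Blue is lower and red higher; the ST5589 columns are of a single colour in every row, and the spread between arrays is seen in CDKN1A (DMSO array 1) and ALB (ST5589 array 2).

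Short non-coding RNAs held the widest changes. Of 216 tested genes of these classes 23 were called (10.6%, beside 0.928% of all genes), 20 higher and 3 lower. The tested classes were small nucleolar, Cajal body and spliceosomal RNAs, 7SK and 7SL, Y and vault RNAs, ribosomal RNAs and other small RNAs. The rises included spliceosomal RNAs, the 7SK RNA that holds the elongation kinase P-TEFb inactive, and H/ACA small nucleolar RNAs, which guide pseudouridylation of other RNAs. RNU6ATAC, of the minor spliceosome, had 9.71, 10.92 and 9.68 with ST5589, against 7.79, 7.51 and 7.38 with DMSO (2.54 ± 0.24, limma adjusted p = 0.000283). RNU4-2, a U4 RNA, had 11.41, 12.49 and 11.31, against 9.70, 9.08 and 9.05 with DMSO (2.46 ± 0.26, adjusted p = 0.000382). RN7SK had 11.16, 12.51 and 11.28, against 9.34, 9.51 and 9.60 with DMSO (2.17 ± 0.28, adjusted p = 0.00196). The signal of all 3 was raised in every ST5589 array, and array 2 was highest each time. Whether the signals of short RNAs, after the RNeasy columns and TotalPrep labelling of the protocols, follow the amount of each RNA was not tested. H/ACA RNAs made up 14 of the 20 rises, out of 79 tested, led by SNORA2B (2.12 ± 0.26), SNORA74A (1.60 ± 0.29) and SNORA38B (1.56 ± 0.19). The median over all 79 was 0.09. None of the 90 tested C/D small nucleolar RNAs, which guide methylation, was called. Their median was -0.09 and their largest value 1.30. The 3 tested ribosomal RNA genes were not called either. In all 3 every ST5589 array lay above every DMSO array, as in 9.62% of all genes. Their median was 1.41 and their largest value 2.99, the largest of all genes tested. The other called rises were RNU6-1, RNU1-1 and RNVU1-18, at 1.43, 1.24 and 1.44, whose probes may read several near-identical gene copies.

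All 20 of these rises had ST5589 array 2 more than 0.5 above both other ST5589 arrays, a pattern seen in 0.727% of all genes tested. Of the 83 genes with this pattern 51 were short RNAs, out of 216 tested, so it was not particular to the called rises. The median excess of array 2 over the mean of arrays 1 and 3 was 1.06 in these 20 genes (0.56 to 1.46), 0.06 in the 41 other rises outside that pattern and 0.01 in the 39 other falls. The ribosomal RNA probes moved in the same arrays, and their part in the result was not tested. Without array 2, 17 of the 20 still passed, with RNU6ATAC at 2.14, RNU4-2 at 2.08 and RN7SK at 1.74. RNVU1-18, RNU1-1 and SNORA1 did not pass without it (adjusted p = 0.114, 0.117 and 0.0699). Only 10 of the 20 stayed called without each TMD8 array in turn. The 19 tested genes that host such RNAs in their introns or exons held 0 calls, with NCL at -0.31 and SNHG6 at 0.32, and the same was found for the 49 genes of their processing and assembly (EXOSC8 at -0.40 and INTS8 at -0.37) and the 20 genes of 7SK and elongation control (CCNH at -0.42 and MEPCE at -0.21).

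**Figure D4:**
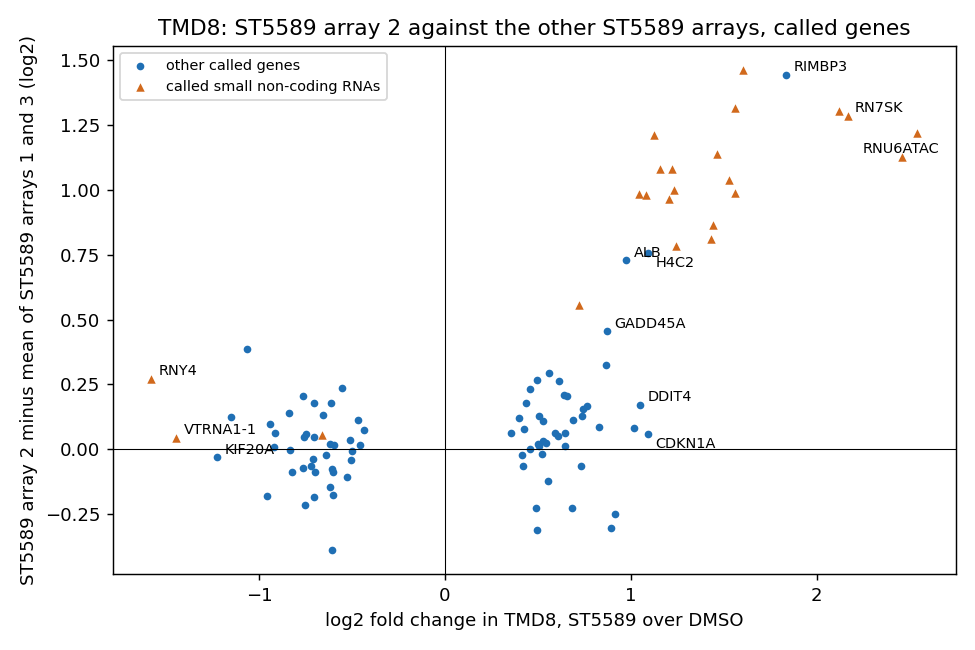
Excess of ST5589 array 2 over the mean of ST5589 arrays 1 and 3 (log2, vertical axis) against the log2 fold change over DMSO (horizontal axis) for the 106 called genes. Orange triangles are short non-coding RNAs, whose 20 rises lie between 0.56 and 1.46; blue points are other genes, which lie under 0.5 apart from RIMBP3, H4C2 and ALB.

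The 3 falls among short RNAs were Y and vault RNAs, which RNA polymerase III makes and which are found mostly in the cytoplasm. RNY4, a Y RNA, had 7.75, 8.00 and 7.71 with ST5589, against 9.97, 9.22 and 9.01 with DMSO (-1.58 ± 0.21, adjusted p = 0.00252). VTRNA1-1, a vault RNA, had 8.47, 8.50 and 8.44, against 10.10, 9.94 and 9.70 with DMSO (-1.45 ± 0.14, adjusted p = 0.000283). RNY1 had 7.81, 7.78 and 7.64, against 8.69, 8.32 and 8.20 with DMSO (-0.66 ± 0.13, adjusted p = 0.0245). In contrast to the rises, ST5589 array 2 lay close to its companions in these genes, and DMSO array 1 was the highest DMSO array in all 3. RNY4 and VTRNA1-1 stayed called without each TMD8 array in turn, and RNY1 did so only without DMSO array 3. The Y and vault class had 7 tested genes and a median of -0.25.

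The lists for the identity and signalling of the line held no called gene in the full data. IRF4, the transcription factor on which cells of the activated B-cell type depend, had 10.72, 10.87 and 10.88 with ST5589, against 11.17, 10.70 and 10.60 with DMSO, so the groups overlapped (0.00 ± 0.20, limma adjusted p = 0.999). MYC had 11.42, 11.30 and 11.30, against 11.19, 11.49 and 11.32 with DMSO (0.00 ± 0.11, adjusted p = 0.999). The 14 tested genes of the activated B-cell list had a median of 0.02, with BATF at 0.25 and IL16 at -0.21. The 13 germinal centre genes had a median of 0.00, with VPREB3 at 0.49 and LMO2 at -0.42. The 35 genes of B-cell receptor and Toll-like receptor signalling had a median of -0.02, with VAV2 at 0.35 and FCRL5 at 0.33. The 41 NF-kappaB targets, which this type of lymphoma expresses at high levels, had a median of 0.07, with IL6 at 0.63 and CCR7 at 0.43. IL6, also on the JAK-STAT list, did not pass in the full data (adjusted p = 0.151). Without ST5589 array 2 it was at 0.90 and passed (adjusted p = 0.000605). In the JAK-STAT and PIM list the 27 genes had a median of 0.05, with PIM2 at 0.35.

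Most lists of surface and immune genes gave a like picture. The called genes FCRL2 and CX3CL1 were on none of the lists, and CD1D was on the MHC class I list. Among 30 B-cell surface genes CD70, the ligand of CD27, averaged 10.69 ± 0.09 with ST5589 and 10.04 ± 0.19 with DMSO (SD, n = 3 each) and CD80, a costimulatory ligand, 8.12 ± 0.16 and 7.65 ± 0.08. Their log2 fold changes, 0.65 and 0.46, lay just outside the threshold (adjusted p = 0.0823 and 0.0634). Without ST5589 array 2 CD80 was at 0.55 and passed (adjusted p = 0.0456). In the full data all ST5589 arrays lay above all DMSO arrays for both genes, as in 9.62% of all genes. The 30 chemokine and trafficking genes (CCL3L3 at 0.51), the 44 interferon genes (IRF1 at 0.41 and IFI30 at 0.35) and the 15 MHC class II genes (HLA-DRA at -0.27 and RFX5 at -0.16) held 0 calls. The pan-B list (MS4A1 at -0.31 and BLK at -0.26) and the plasma cell list (JCHAIN at -0.36 and TNFRSF17 at 0.20) did so too. Marker lists of other cell types held 0 calls, with KRT19 at -0.28 and EPCAM at -0.13 in the stromal and epithelial list, LYZ at 0.28 and CD14 at -0.16 in the myeloid list and CD5 at -0.06 as the single tested T or NK gene.

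Metabolic and housekeeping lists also held no called gene. ACTA2, DRAM1 and ENC1, all called, were on none of the lists, so these counts cover listed members only. The 37 genes of the MYC and ribosome biogenesis list had a median of -0.05, with EIF4E at -0.47 and NOP58 at -0.37. The 28 cholesterol and fatty acid genes had IDI1 at -0.34 and CYP51A1 at -0.32, the 23 glycolysis genes LDHB at -0.25 and ALDOC at 0.24, and the 21 hypoxia targets BHLHE40 at 0.32 and VEGFA at 0.22. The 45 splicing genes had HNRNPU at -0.32 and SRSF7 at 0.27, and the 32 lysosome and autophagy genes ULK1 at 0.33 and SQSTM1 at 0.30. None of these genes passed the test. The 8 metallothioneins (MT1X at 0.21 and MT1H at 0.16), the 12 polyamine genes (OAZ2 at 0.23 and PAOX at 0.22), the 18 tubulin genes (TUBB2B at 0.31 and TUBB6 at -0.31) and the 13 genes often used as references (GAPDH at 0.18 and YWHAZ at 0.11) gave the same result. Among 29 actin cytoskeleton genes MYL12A had a value of -0.83, with means of 11.54 ± 0.02 with ST5589 and 12.37 ± 0.89 with DMSO (SD, n = 3 each), so the DMSO arrays alone spread wider than the difference. It did not pass (limma adjusted p = 0.647), and ARPC3 was at -0.37.

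In all, 13 of the 46 lists held a called gene. Over the 33 lists without one, the list medians ran from -0.10 to 0.14. Whole gene families read from symbols moved little as well. Among 72 cytosolic ribosomal protein genes, 76 mitochondrial ribosomal protein genes, 75 oxidative phosphorylation genes and 34 proteasome genes 0 were called, with medians of 0.00, -0.06, 0.00 and -0.03. Of 47 replication-dependent histone genes H4C2 was called higher and H2AC6 lower, beside 0.928% of all genes called. Their median was -0.10, and in 16 all ST5589 arrays lay below all DMSO arrays, beside 8.16% of all genes. Of 346 ZNF genes 0 were called, and 212 were positive, beside 52.7% of all genes. Scaling the arrays to a common median lowered the median of all genes by 0.10. Relative to that median, 10 of the 46 list medians changed sign under this scaling. Relative to the median of all genes in that setting, the mitosis list was at -0.59, the p53 list at 0.20, the integrated stress list at 0.19, the replication list at 0.18 and the repair list at 0.17.

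**Figure D5:**
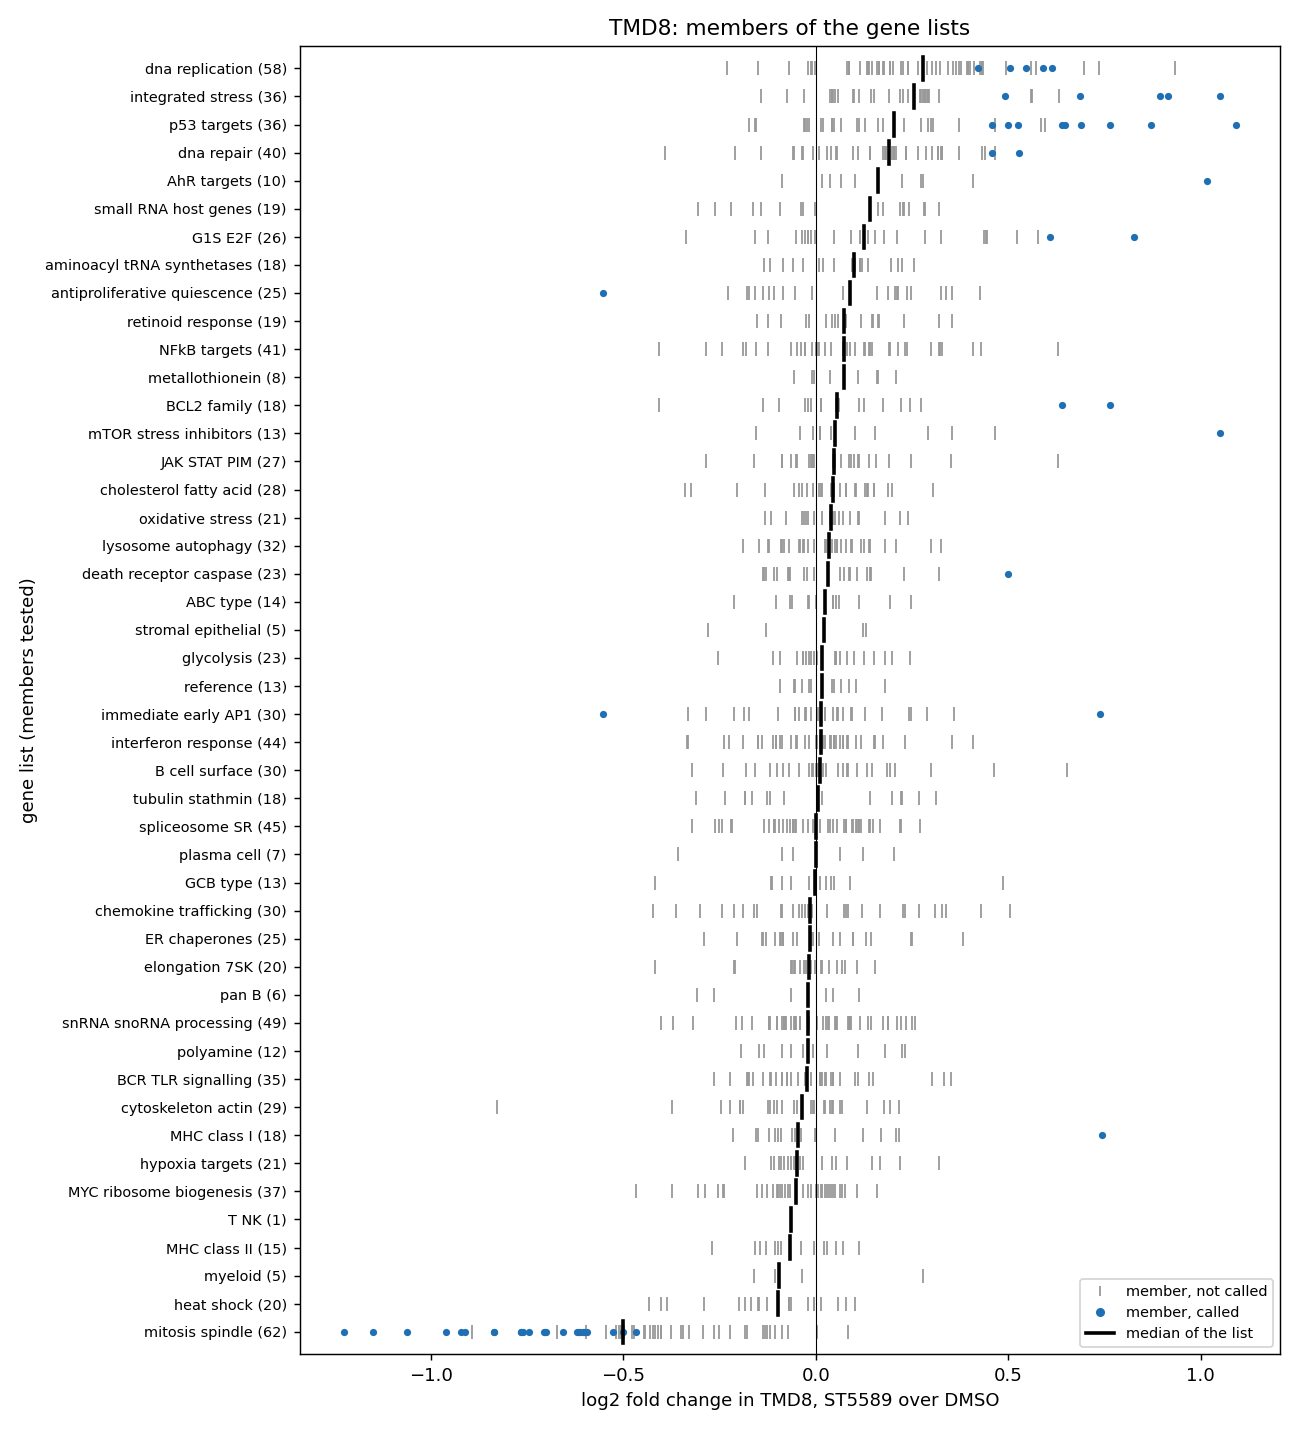
Log2 fold change in TMD8, ST5589 over DMSO, of each tested member of the 46 gene lists (rows, with the number tested, ordered by median). Grey ticks are members not called, blue points called members and black bars the list medians; the mitosis list lies at -0.50 and the other medians between -0.10 and 0.28.

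For 33 of the called genes the array holds at least 1 further probe above background. The most intense further probe had the sign of the main one in all 33 genes, reached more than 0.5 of its size in 24, and had a median ratio of 0.84 to it, while 12 of the 33 were called when all probes were tested singly. Agreement was close for CENPA (-0.80 against -0.96), HMMR (-0.71 against -0.62), RN7SK (1.99 against 2.17) and RNU6ATAC (2.52 against 2.54). The ratio was at or under 0.5 for KAT2B (0.00 against 0.40), UNG (0.04 against 0.53), TNFRSF10B (0.05 against 0.50), POLD3 (0.08 against 0.61), BAX (0.15 against 0.64), PMAIP1 (0.22 against 0.77), CCNE1 (0.24 against 0.61), SAPCD2 (-0.18 against -0.82) and RACGAP1 (-0.16 against -0.61).

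Set beside DOHH2, most called TMD8 changes outside the short RNAs had the same sign. DOHH2 ST5589 array 2 stood apart: of 53 probes bright in all 6 TMD8 arrays and above background in none of the other 5 DOHH2 arrays, 47 were above background in it. In the other 5 DOHH2 arrays 0 of 6 such probes were, and in the TMD8 arrays 0 or 1 of 13 or 14 probes bright in DOHH2 were. The 2 lines were run on different chips, so a line cannot be told apart from its chip. Of the 39 falls 38 had a negative value in DOHH2 too, and their median was -0.70 in TMD8 and -0.39 in DOHH2 (38 and -0.42 without DOHH2 ST5589 array 2). Of the 44 other rises 39 were positive, with a median of 0.61 in TMD8 and 0.24 in DOHH2 (37 and 0.20 without that array). Over all genes tested outside the short RNAs the DOHH2 median was 0.01, and the share with the same sign in both lines was not counted. The members were chosen in TMD8, so larger medians there are a description.

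Single genes differed in how the lines compared. KIF20A was at -1.23 in TMD8 and -0.68 in DOHH2, PLK1 at -1.15 and -0.24, and AURKA at -0.84 and -0.45. CDKN1A was at 1.09 in TMD8 and 1.07 in DOHH2, ATF3 at 0.91 and 1.16, and DDIT4 at 1.05 and 0.67. CYP1A1, not above background in any DOHH2 array, had 1.02 in TMD8 and 0.05 in DOHH2, and the difference of 0.96 did not pass (limma adjusted p = 0.120). The short RNA rises were at a median of 1.44 in TMD8 and -0.07 in DOHH2, where 4 of 20 were positive (3 and -0.12 without DOHH2 ST5589 array 2). The difference between the lines passed the test for 2 of the 11419 genes (0.0175%), both short RNAs, 1 positive (0.00876%) and 1 negative (0.00876%). RNU6ATAC was at 2.54 in TMD8 and -0.16 in DOHH2 (difference 2.71 ± 0.35, SE), and VTRNA1-1 at -1.45 and 0.06 (difference -1.50 ± 0.19), both with an adjusted p of 0.0148. Leaving out single arrays ended the call of RNU6ATAC for TMD8 DMSO arrays 2 and 3, DOHH2 DMSO arrays 1, 2 and 3 and DOHH2 ST5589 arrays 1 and 2 (adjusted p from 0.0596 to 0.0861). It ended that of VTRNA1-1 for TMD8 DMSO array 2, TMD8 ST5589 array 1, DOHH2 DMSO arrays 1 and 3 and DOHH2 ST5589 array 1 (0.0613 to 0.0861). Without TMD8 ST5589 array 2 the count of genes with a called difference was 18, 17 of them positive.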

How the data were processed

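The authors deposited one intensity per probe and array, not background-corrected, for 47231 probes of a single-colour Illumina HT-12 beadchip. Per the labels' protocols RNA was prepared with RNeasy columns, checked on a Bioanalyzer and labelled with a TotalPrep kit, and GenomeStudio is named in the submitters' processing notes. The authors also deposited processed log2 values, whose normalization the sources used here do not give; their ranks match the intensities, each array has a median of 6.67, and they served as an alternative. No detection p-values or control probes were used here. Intensities were background-corrected with normexp (offset 50), quantile normalized over 12 arrays and taken to log2 (R 4.3.3, limma 3.58.1). A probe was above background past the mode plus 2.33 SD, the SD being mirrored from values below the mode, and was kept where this held in all 3 arrays of a group. Of the probes, 30113 had 1 gene symbol in the platform annotation, 8 several and 17110 none; symbols were updated through RefSeq for 30074 of 30121. The probe with the highest mean stood for its gene. A limma fit over all 12 arrays (lmFit, eBayes) gave the ST5589 effect in each line and their difference, with Benjamini-Hochberg adjustment over 11419 genes and a threshold of 0.05. The fit was tested on simulated data with independent noise per gene and array, so shifts shared within an array were not covered. Median raw intensity was 98.1 to 106 in the ST5589 arrays and 104 to 113 in the DMSO arrays of TMD8, and 40.9% to 46.1% of probes were above background; the number of arrays limits the precision.

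Array values are given for the 12 largest rises and falls outside the short RNAs, called genes are named by list, and for lists without a call the members with the largest changes. AURKA, CDKN1A, MDM2, MYC, PLK1, IRF4 and CYP26A1 were named in any case, and array values of other genes were chosen after they were seen. The genes, lists and motifs were chosen with earlier results of these data known. Alternatives were other background, scaling, filter and probe rules, array weights, a replicate block, the TMD8 arrays alone, each array left out, and the short RNAs left out.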

Additional observations from a re-analysis of the deposited data

Results flagged for a closer look

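The ST5589 effect differed between TMD8 and DOHH2 by the test of the difference itself for RNU6ATAC, at 2.71 on the log2 scale (TMD8 minus DOHH2), and for VTRNA1-1, at -1.50. SNORA1 rose in all ST5589 arrays of TMD8 and lay below DMSO in all those of DOHH2, a difference of 0.99 that did not pass (limma adjusted p = 0.249). Among the 5155 kept probes with no gene name, which no comparison of genes uses, 10 were called in TMD8, 5 higher and 5 lower. No group held the 4 or more arrays needed to test single arrays as outliers.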

How the results depend on the processing

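The 106 called genes became 9 with arrays scaled to a common median (7 higher, 2 lower; 77.8% higher, beside 60.4%), 455 with array weights (292 higher, 163 lower), 40 with the replicate block and 66 with the short RNAs left out (32 higher, 34 lower; 48.5% higher). Leaving out single arrays gave 50 to 117, and without TMD8 ST5589 array 2 and DMSO array 1 together, a setting chosen after seeing the data, 50, of which 48 were among the 106. The other settings gave 85 to 116. The 2 genes with a called difference between lines became 4 with a normexp offset of 16, 1 without background correction, 0 with median scaling, 1 with the authors' processed values, 15 with array weights, 1 with the replicate block, 0 without short RNAs, 13 without the 2 arrays together, and 0 to 18 without single arrays. AURKA was at -1.05 with median scaling (adjusted p = 0.318) and passed in the other settings run (adjusted p from 6.77e-07 to 0.0161). The causes were not tested. Same-numbered TMD8 arrays did not deviate together (correlations of -0.14, -0.00 and -0.11). With 3 arrays in a group this cannot decide whether the numbers pair the samples. None of the 106 genes changed sign in any alternative. Of these, 9 were called in every alternative that tested them (CYP1A1, H4C2, PLK1, RIMBP3, RNU4-2, RNU6ATAC, SNORA2B, SNORA38B and VTRNA1-1). CYP1A1, PLK1 and RIMBP3 were tested in 29 alternatives and the others of these 9 in 28. Without each TMD8 array in turn 41 of the 106 stayed called, and 18 were lost in at least 0.5 of the alternatives. Of 67 named genes that were not called, 12 gained a call in some alternative. With array weights 12 did so (AHRR, ASB2, CCL3L3, CD70, CD80, EDEM1, EXOSC8, HSPA1B, IL6, JCHAIN, MDM2 and SRSF7). AHRR, CD70, CD80 and IL6 also gained it in other settings, among them leaving out DOHH2 ST5589 array 1 for CD70 (adjusted p = 0.00775) and DOHH2 DMSO array 1 for CD80 (adjusted p = 0.039). Of the 67, 10 changed sign somewhere, with no adjusted p under 0.888 there. With median scaling BATF was at -0.0012, GAPDH at -0.086, IRF4 and MYC at -0.26 and YWHAZ at -0.18. With cyclic loess IRF4 was at -0.032 and MYC at -0.028, and with the authors' processed values IRF4 was at -0.0079 and MYC at -0.00062. With the mean of all probes MYC was at -0.15 and YWHAZ at -0.090, and with array weights ALDOC was at -0.050 and MYC at -0.033. Without both named arrays ALDOC was at -0.14, CYP51A1 at 0.016, IL16 at 0.013, MYC at -0.047 and YWHAZ at -0.0097. Leaving out single TMD8 arrays gave -0.081 to 0.41 for ALDOC, -0.019 to 0.39 for BATF, -0.16 to 0.026 for CD5, -0.57 to 0.086 for CYP51A1, -0.11 to 0.18 for IRF4, -0.50 to 0.059 for MEPCE, -0.066 to 0.083 for MYC and -0.0021 to 0.20 for YWHAZ. Dim probes near background understate change.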
